A study of Mus musculus with 38 samples.

Results

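Wild type (WT) fetal male germ cells, termed gonocytes, were compared between embryonic day (E) 13.5 and E15.5. All samples labelled as WT in the Inhba line by title and count column were taken, which gave 7 of the 19 animals in the series. There were 3 animals at E13.5 (803.2, 876.4 and 900.2) and 4 at E15.5 (1064.2, 855.2, 941.3 and 995.1). Values by animal are listed below in this order. Each animal contributed its paired testes, from which cells carrying the Oct4-Gfp reporter (Green Fluorescent Protein under the Oct4 promoter) were sorted by FACS. All embryos were of Inhba x Oct4-Gfp crosses of heterozygous mates on a C57/Bl6/129svJ strain, and were WT for Inhba, the gene of the activin A subunit. The genotype field of the sample records says KO for all 4 E15.5 animals, whereas their titles and count columns say WT. The titles were followed. The labels name no littermates among the Inhba animals. The number before the point in an animal's name differs among the 7 WT animals, while 855.2 shares it with the KO animal 855.1, and the KO animals 1052.2 and 1052.4 share it with each other. The test described below fitted WT and KO animals together, and with the 7 WT animals alone it called 5249 genes higher and 4233 lower. The authors had left out an E13.5 WT gonocyte sample as an outlier.

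Gonocytes arise from primordial germ cells, which carry a pluripotency programme, proliferate and have lost most of their DNA methylation when they reach the gonad. In the fetal testis they enter mitotic arrest, silence pluripotency genes, build the piRNA pathway, in which PIWI proteins loaded with small RNAs silence transposons, and start to methylate DNA anew. The interval studied spans this transition.

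Total counts were 18931071 to 19791975 at E13.5 and 18918003 to 37220879 at E15.5, with the greatest depth in animal 941.3. A level of 3 counts equalled 0.0806 to 0.159 cpm, that is, counts scaled to a library total of 1e+06. The germ cell markers Ddx4, an RNA helicase, and Dazl, an RNA-binding protein, lay at 481 cpm or above in every animal. Replicates at E13.5 had Pearson correlations of log2 CPM across genes of 0.982 to 0.986, and those at E15.5 of 0.906 to 0.983. The first principal component held 88.7% of the variance and separated the ages. Animal 941.3 was the E15.5 animal nearest to E13.5 on it (score 53.17, against 100.29 to 131.69 in the others). Among genes called higher at E15.5, 941.3 had the E15.5 value closest to the E13.5 mean in 66.2%, and 1064.2 the farthest in 60.1%. The library kit and cell sorter of each animal are not given in the sources used here, so their part was not tested.

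**Figure D1:**
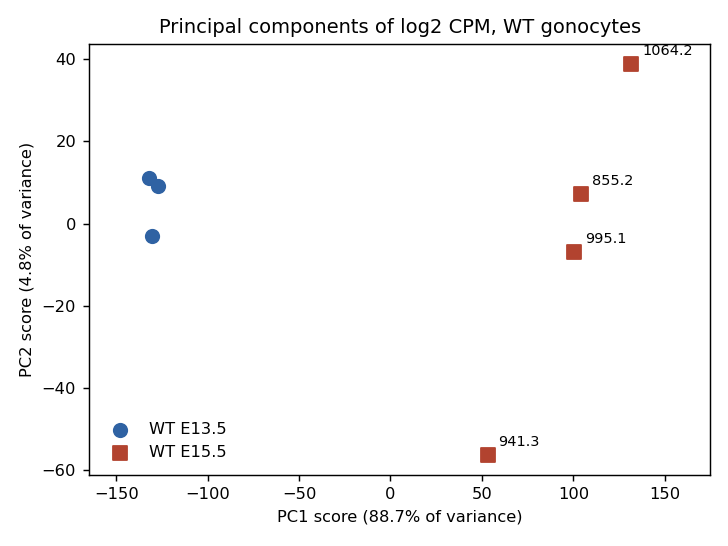
Scores of the 7 WT animals on the first and second principal components of log2 CPM, which held 88.7% and 4.8% of the variance. The 3 E13.5 animals (circles) lie between -131.84 and -127.04 on the first component and the 4 E15.5 animals (squares, with animal numbers) between 53.17 and 131.69.

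The transcriptome changed broadly. Of 15376 genes tested, 9553 (62.1%) were called, that is, had an adjusted p under 0.05 by edgeR's quasi-likelihood test with Benjamini-Hochberg adjustment and a change beyond 1.5-fold. At E15.5, 5234 genes (34%) were higher and 4319 (28.1%) lower. For 10909 genes (70.9%) the cpm values of E13.5 and E15.5 animals were fully separate, with 43.4% higher and 27.6% lower at E15.5. These shares are the background for the lists below. The rises were larger than the falls, with 2714 genes over 4-fold higher and 604 over 4-fold lower, and 1158 and 44 over 16-fold. The genes that fell had been the more abundant. Their mean levels summed to 443213 cpm before and 229268 cpm after, while genes that rose went from 89559 to 265124 cpm. Of the genes called higher, 2900 had a mean at E13.5 under 2.4 cpm, the limit used for detection. Levels in cpm refer to library totals, whereas fold changes and tests use TMM normalization. On that scale the median log2 fold change over all genes was 0.05, and it was 0.27 with library totals and 0.33 with the upper quartile. With these scalings 64.6% and 66.8% of the calls were higher, against 54.8% with TMM. Whether less RNA per cell or fewer cells of a type underlies a lower value cannot be told apart in sorted bulk samples.

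**Figure D2:**
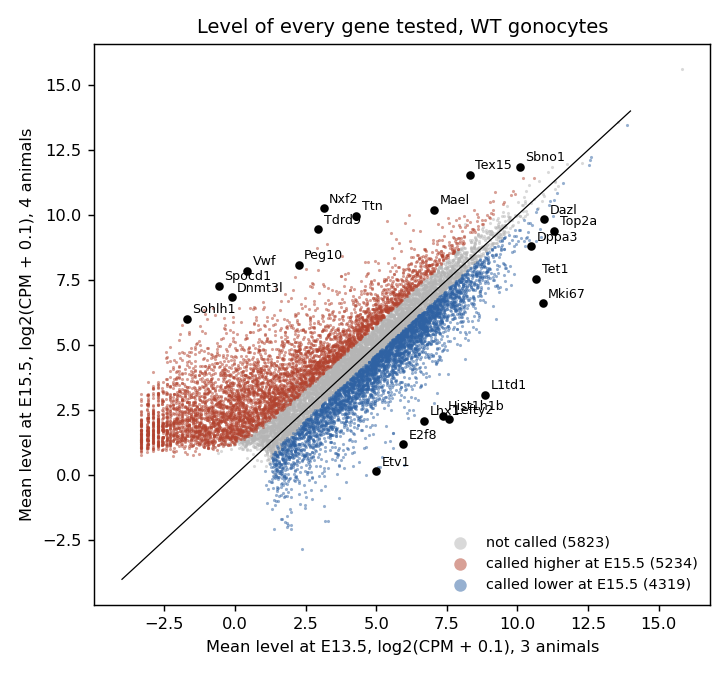
Mean level at E13.5 (3 animals, x axis) against mean level at E15.5 (4 animals, y axis) of the 15376 genes tested, as log2(CPM + 0.1), with the line of equal levels. The 5234 genes called higher lie above the line and reach down to levels near 0 at E13.5, and the 4319 called lower lie below it.

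Promoters of genes that carry the main rises and falls are shown for their letters, chosen after the matches were seen. Each runs from 250 bases before to 50 bases after the outermost RefSeq start (GRCm38.p6), 5′ to 3′ on the gene's strand. In Tdrd9 (chr12:111971309-111971608, plus strand), Mael (chr1:166238695-166238994, minus strand) and Sohlh1 (chr2:25847199-25847498, minus strand), which rose, capitals mark the E-box letters CACGTG. In Cdk1 (chr10:69352863-69353162, minus strand), which fell, they mark CCAAT and TTTGAA, the letters of the CCAAT box and of the cell cycle homology region (CHR), on either strand. In the histone gene Hist1h1b (chr13:21780576-21780875, minus strand), which fell, they mark CCAAT and TATAAA on either strand.
Tdrd9: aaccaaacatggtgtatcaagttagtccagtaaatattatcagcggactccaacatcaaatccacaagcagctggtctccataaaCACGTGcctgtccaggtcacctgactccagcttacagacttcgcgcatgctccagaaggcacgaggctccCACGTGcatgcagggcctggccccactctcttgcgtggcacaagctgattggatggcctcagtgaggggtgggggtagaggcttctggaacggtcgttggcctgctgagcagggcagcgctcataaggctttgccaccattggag
Mael: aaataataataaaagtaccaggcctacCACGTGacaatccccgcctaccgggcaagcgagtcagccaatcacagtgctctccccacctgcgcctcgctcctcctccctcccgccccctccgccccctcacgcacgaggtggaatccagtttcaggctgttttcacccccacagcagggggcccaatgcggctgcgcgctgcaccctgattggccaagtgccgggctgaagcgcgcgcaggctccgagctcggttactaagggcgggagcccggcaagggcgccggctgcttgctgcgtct
Sohlh1: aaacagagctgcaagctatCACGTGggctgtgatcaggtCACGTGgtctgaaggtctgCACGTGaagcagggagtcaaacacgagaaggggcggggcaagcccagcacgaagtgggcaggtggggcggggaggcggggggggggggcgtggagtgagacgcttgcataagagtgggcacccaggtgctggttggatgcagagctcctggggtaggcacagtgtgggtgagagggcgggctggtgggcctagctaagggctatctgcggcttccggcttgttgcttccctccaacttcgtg
Cdk1: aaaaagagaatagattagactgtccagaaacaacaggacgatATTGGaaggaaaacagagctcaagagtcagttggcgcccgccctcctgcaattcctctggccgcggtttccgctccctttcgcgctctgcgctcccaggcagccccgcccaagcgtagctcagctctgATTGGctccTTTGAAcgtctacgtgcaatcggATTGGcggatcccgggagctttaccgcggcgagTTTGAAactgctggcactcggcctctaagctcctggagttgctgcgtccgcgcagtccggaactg
Hist1h1b: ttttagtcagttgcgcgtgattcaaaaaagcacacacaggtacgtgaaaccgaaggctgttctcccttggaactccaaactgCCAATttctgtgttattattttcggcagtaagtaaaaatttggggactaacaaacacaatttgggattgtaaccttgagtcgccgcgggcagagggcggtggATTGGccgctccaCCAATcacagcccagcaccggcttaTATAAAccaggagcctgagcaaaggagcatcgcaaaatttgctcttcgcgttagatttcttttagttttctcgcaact
Promoters were found for 10887 of the 15376 genes tested (70.8%). That is too few for a comparison of letters or base composition between genes called higher, called lower and not called, and this comparison is void. For the same reason no share is compared for the piRNA, DNA replication and pluripotency lists. Lists with a promoter for at least 80% of their members tested are described below, without a test, against all 10887 promoters. The meiosis and mitosis lists had 80%, and the replication list, left out, had 78.9%. As the 10887 promoters are themselves incomplete, shares set beside theirs are a description only. CCAAT was in 39.6% of the 10887, TTTGAA in 12.4%, TATAAA in 7.23%, CACGTG in 10.4% and TTCCCGC, an E2F site, in 8.68%, in each case on either strand. Promoters of Piwil4, Dnmt3l and Gtsf1, which rose, and of Sohlh2, which fell, held no CACGTG. Those of E2f8, Ccne1, Mcm2 and Mcm6, which fell, held no TTCCCGC. These genes do not stand for their lists. CACGTG was in 8 of the 21 piRNA promoters found, and TTCCCGC in 14 of the 30 DNA replication promoters found.

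Most genes of the piRNA pathway rose. Of 28 members tested, 23 were called higher and none lower (34% and 28.1% over all genes), with a median log2 fold change of 1.47. The 29 members with a count summed to between 2640 and 2830 cpm in E13.5 animals and to between 11500 and 13600 cpm in the older ones. Without animal 941.3 there was 1 lower call. Tdrd9, an RNA helicase with a Tudor domain (ENSMUSG00000054003, chromosome 12, 111971559 to 112068854), stood at 6.66, 10.1 and 6.05 cpm in the E13.5 animals and at 974, 712, 456 and 681 cpm at E15.5. Its lowest E15.5 value was in 941.3, and the log2 fold change was 6.31 ± 0.52 (SE, edgeR adjusted p = 9.8e-08). Piwil4, the nuclear PIWI protein of fetal germ cells also called MIWI2 (ENSMUSG00000036912, chromosome 9, 14696230 to 14740733), was at 9.61, 8.39 and 10.3 cpm and then at 526, 559, 345 and 477 cpm. Every E15.5 animal was above every E13.5 animal, and the log2 fold change was 5.43 ± 0.47 (adjusted p = 1.5e-07). Spocd1 and Tex15 act with Piwil4 in transposon methylation. Spocd1 was under 1 cpm in each E13.5 animal and reached 208, 181, 79.8 and 152 cpm, whereas Tex15 went from 241, 352 and 357 cpm to 3409, 3069, 2494 and 3071 cpm. Tex15 was among the 10 genes with the largest gain in mean cpm, a measure that favours long and abundant transcripts, as were Mael and Tdrd1. Mael, a nuage component (ENSMUSG00000040629, chromosome 1, 166201201 to 166238747), rose from 123, 140 and 137 cpm to 1403, 1187, 945 and 1187 cpm. Tdrd1, a Tudor protein that binds PIWI proteins, rose from 57.0 to 90.4 cpm to 930 to 1126 cpm. The log2 fold changes were 4.17 ± 0.36 for Morc1, an ATPase that silences transposons, 2.10 ± 0.13 for Mov10l1, the helicase that feeds piRNA precursors to PIWI proteins, and 2.23 ± 0.20 for Piwil2, which was chosen after its values were seen. The 5 members not called included Ddx4, whose log2 fold change was 0.45 ± 0.14.

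The DNA methylation genes divided into rising and falling sets. Of 26 tested, 10 were called higher and 12 lower. Dnmt3l, the catalytically inactive cofactor of the de novo methyltransferases (ENSMUSG00000000730, chromosome 10, 78041947 to 78063622), was at 0.581, 1.31 and 0.579 cpm and then at 163, 148, 53.2 and 94.4 cpm. All E15.5 animals were above 50 cpm, and the log2 fold change was 6.88 ± 0.68 (adjusted p = 4.7e-07). Dnmt3a, a de novo methyltransferase, went from 73.1, 98.4 and 64.9 cpm to 771, 844, 583 and 589 cpm (log2 fold change 2.92 ± 0.29). Kdm1b, a histone H3K4 demethylase, chosen after its values were seen, went from 70.8, 78.1 and 70.9 cpm to 972, 510, 198 and 382 cpm, with E15.5 animals that differed several-fold among themselves. Dnmt1, the maintenance methyltransferase, decreased from 589 to 648 cpm to 241 to 319 cpm (log2 fold change -1.42 ± 0.14). Hells, a chromatin remodeller, changed by -2.30 ± 0.20 and Uhrf1, which recruits Dnmt1 and was chosen after its values were seen, by -1.57 ± 0.17 on the log2 scale. The TET dioxygenases, which oxidise methylated cytosine, moved in opposite directions. Tet1 (ENSMUSG00000047146, chromosome 10, 62804570 to 62908996) was at 1610, 1581 and 1672 cpm, then at 77.6, 180, 314 and 182 cpm, which is among the 10 largest losses in mean cpm, with a log2 fold change of -3.32 ± 0.38 (adjusted p = 1.5e-06). Tet3 rose from 2.06, 3.13 and 3.53 cpm to 112, 77.6, 71.9 and 67.5 cpm, with a log2 fold change of 4.59 ± 0.39. For Tet1 the E15.5 animal nearest to E13.5 was 941.3, and for Tet3 it was 995.1.

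**Figure D3:**
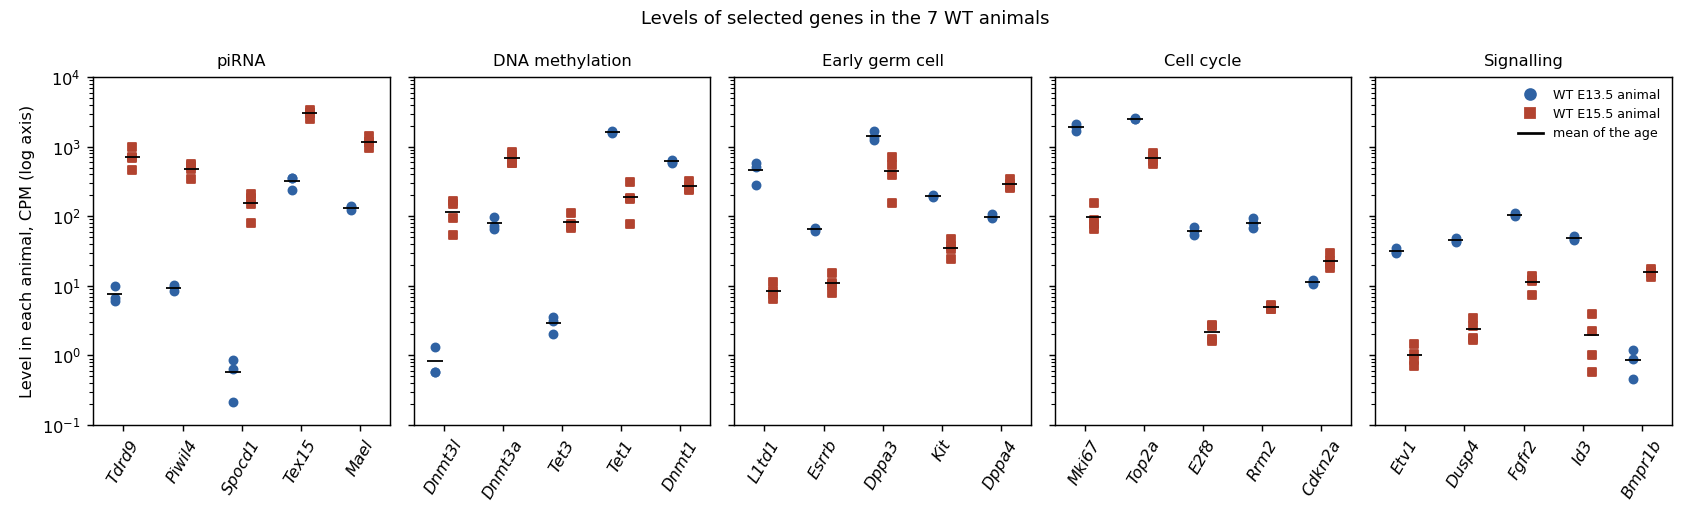
Level in cpm, on a log axis, of genes from 5 groups in each of the 3 E13.5 (circles) and 4 E15.5 (squares) WT animals, with black bars for the mean of each age. The ages do not overlap for any gene plotted, and within the DNA methylation group Dnmt3l, Dnmt3a and Tet3 are higher at E15.5 while Tet1 and Dnmt1 are lower.

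Genes of pluripotency and early germ cells were mostly lower at E15.5. Of 24 pluripotency genes tested, 18 were called lower and 2 higher, with a median log2 fold change of -2.19. L1td1, an RNA-binding protein of pluripotent cells (ENSMUSG00000087166, chromosome 4, 98726734 to 98738480), had the largest fall of all genes over 50 cpm that did not overlap. It measured 507, 590 and 283 cpm and later 6.55, 11.3, 8.46 and 7.67 cpm, a log2 fold change of -5.98 ± 0.47 (adjusted p = 7.2e-08). Esrrb and Klf5, transcription factors of the naive state, changed by -2.76 ± 0.24 and -3.17 ± 0.25. The core factors Nanog and Sox2, chosen after their values were seen, were at 51.1 to 62.5 cpm and 82.2 to 84.9 cpm at E13.5. In the E15.5 animals Nanog was at 3.88, 8.61, 14.4 and 9.36 cpm and Sox2 at 4.30, 17.1, 23.6 and 9.99 cpm, with the lowest value in 1064.2 and the highest in 941.3 for each. Pou5f1, the gene behind the reporter used for sorting, fell less. It went from 138, 127 and 130 cpm to 69.8, 109, 116 and 95.6 cpm (log2 fold change -0.65 ± 0.15, adjusted p = 0.0014). The call was lost with library totals (-0.43), with the upper quartile (-0.38) and without animal 1064.2 (-0.48). The members called higher were Dppa4, a chromatin protein of pluripotent cells, which went from 94.0 to 106 cpm to 255 to 341 cpm, and the transcription factor Klf4 (log2 fold change 1.86 ± 0.40), chosen after its values were seen. Among 15 primordial germ cell genes tested, 10 were called lower and 1 higher. Kit, the receptor for Kit ligand, fell from 198, 200 and 190 cpm to 37.0, 46.8, 24.0 and 33.8 cpm (-2.69 ± 0.26). Prdm1 and Prdm14, the transcriptional regulators of germ cell specification, changed by -2.02 ± 0.19 and -2.67 ± 0.38, and the adhesion molecules Epcam and Cdh1 by -2.46 ± 0.15 and -2.35 ± 0.38. Dppa3, a maternal factor also known as Stella, was spread widely among E15.5 animals, at 155, 386, 712 and 539 cpm against 1376, 1241 and 1658 cpm earlier.

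Genes of DNA replication and mitosis were mostly lower at E15.5. Of 38 replication genes tested, 32 were called lower and none higher, and of 40 mitosis genes 31 were lower and 1 higher. With the upper quartile 29 replication and 26 mitosis genes were lower. Mki67, the proliferation marker Ki-67 (ENSMUSG00000031004, chromosome 7, 135689784 to 135716361), went from 2129, 1662 and 1907 cpm to 66.5, 89.8, 156 and 78.1 cpm, a log2 fold change of -4.50 ± 0.33 (adjusted p = 5.3e-08). Top2a, a DNA topoisomerase, went from 2617, 2466 and 2500 cpm to 565, 725, 801 and 616 cpm (-2.12 ± 0.18). Rrm2, the ribonucleotide reductase subunit made in S phase, was within 4.65 to 5.24 cpm in all 4 E15.5 animals and at 67.6 to 93.5 cpm at E13.5 (-4.25 ± 0.31). The replicative helicase subunits Mcm2 and Mcm6 changed by -2.75 ± 0.21 and -1.75 ± 0.12, and the mitotic kinase Plk1 by -3.05 ± 0.20. Cdk1, chosen for its promoter, went from 73.0 to 77.1 cpm to at most 19.7 cpm. Of the 32 mitosis genes with a promoter, 78.1% held CCAAT and 68.8% TTTGAA, against 39.6% and 12.4% of all promoters, as in the Cdk1 sequence above. Replication-dependent histone genes are transcribed in S phase and most of their mRNAs lack a poly(A) tail. Of 57 listed, 37 passed the filter, with 35 called lower and 2 higher and a median of -3.51. Members such as Hist1h3g and Hist1h1d were under 2.4 cpm in every E15.5 animal and passed the filter through E13.5 alone. The counts of calls are therefore in part set by the filter. The 57 genes summed to 822 to 961 cpm at E13.5 and to 106 to 177 cpm at E15.5. Hist1h1b, a linker histone, stood at 147, 177 and 164 cpm and then at 1.12, 3.96, 9.94 and 4.02 cpm (-5.26 ± 0.61). All 31 histone promoters found held CCAAT and 64.5% held TATAAA, against 39.6% and 7.23% of all promoters.

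Regulators of the step from G1 to S phase gave 15 lower and 2 higher calls among 26. E2f8, a repressor of the E2F family, fell most (54.3, 61.6 and 69.4 cpm to 2.67, 1.58, 2.77 and 1.69 cpm), while E2f6, a Polycomb-linked repressor of the same family, rose from 48.6 to 50.4 cpm to 108 to 142 cpm. Ccne1, cyclin E1, and Cdc25a, the phosphatase that activates its kinase, changed by -3.23 ± 0.30 and -2.50 ± 0.20. The CDK inhibitors did not move as a group. Of 8 tested, 1 was called higher and 1 lower, or 2 and 3 without animal 941.3. Cdkn2a, which encodes p16 and p19ARF, went from 10.7, 11.3 and 12.2 cpm to 30.0, 22.4, 18.1 and 20.9 cpm (0.78 ± 0.19, adjusted p = 0.0015). Cdkn1a, which encodes p21, went from 34.9, 33.3 and 27.4 cpm to 4.86, 8.33, 11.7 and 6.40 cpm (-2.23 ± 0.28). Cdkn1c, or p57, overlapped between the ages at 44.2, 50.7 and 47.2 cpm and 43.8, 37.2, 44.6 and 28.5 cpm, with a log2 fold change of -0.52 ± 0.20. It was called lower with no fold threshold, without 941.3 (-0.61), and with no filter or edgeR's own filter on low counts (-0.64). Among 15 genes of cell death, 6 were higher and 6 lower. The tumour suppressor Trp53 went from 144, 154 and 128 cpm to between 9.96 and 32.4 cpm (-3.02 ± 0.34), and Bax, a promoter of cell death, changed by -1.97 ± 0.15. Bcl2l1, which promotes survival, rose from 12.9 to 17.4 cpm to 39.5 to 48.7 cpm.

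The signalling lists differed in their counts, and those of the BMP, Wnt and Notch lists were nearest to the 34% and 28.1% over all genes. Of 18 FGF and ERK genes tested, 13 were called lower and 1 higher, with a median log2 fold change of -2.34. The transcription factor Etv1, an ERK output gene, went from 34.8, 30.6 and 29.7 cpm to 0.701, 1.44, 1.05 and 0.846 cpm, a log2 fold change of -5.18 ± 0.36 (adjusted p = 3.5e-08). Its paralogues Etv4 and Etv5 changed by -3.10 ± 0.34 and -2.91 ± 0.33. The feedback phosphatase Dusp4 changed by -4.45 ± 0.37, the inhibitors Spry4 and Spred2 by -3.23 ± 0.35 and -2.33 ± 0.24, and the receptor Fgfr2 by -3.45 ± 0.27. Immediate early genes, which respond to stress during cell preparation as well as to signals, gave 7 higher and 2 lower calls among 14, and 4 higher calls without 900.2, 941.3 or 995.1. Of the Activin and Nodal genes, 10 of 20 were lower and 2 higher. Within the BMP list 5 genes were higher and 7 lower of 18. The type I receptor Bmpr1a fell from 207, 217 and 180 cpm to 77.0, 79.2, 82.3 and 76.0 cpm, whereas its paralogue Bmpr1b rose from 0.455 to 1.21 cpm to 13.4 to 17.3 cpm. Id3, a BMP target, changed by -4.75 ± 0.56. Retinoic acid genes gave 9 higher and 1 lower call among 14. The receptor gene Rxra rose from 24.8 to 35.4 cpm to 104 to 125 cpm while its paralogue Rxrb changed by -1.11 ± 0.22. In the Wnt list 7 were higher and 7 lower of 23, with Lgr4, an R-spondin receptor, going from 308, 322 and 211 cpm to 20.1 to 24.7 cpm and its paralogue Lgr6 changing by 4.38 ± 0.49. The Notch list, with 6 higher and 8 lower of 18, held Notch3 at -2.63 ± 0.21 and the target Heyl at 4.53 ± 0.65.

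**Figure D4:**
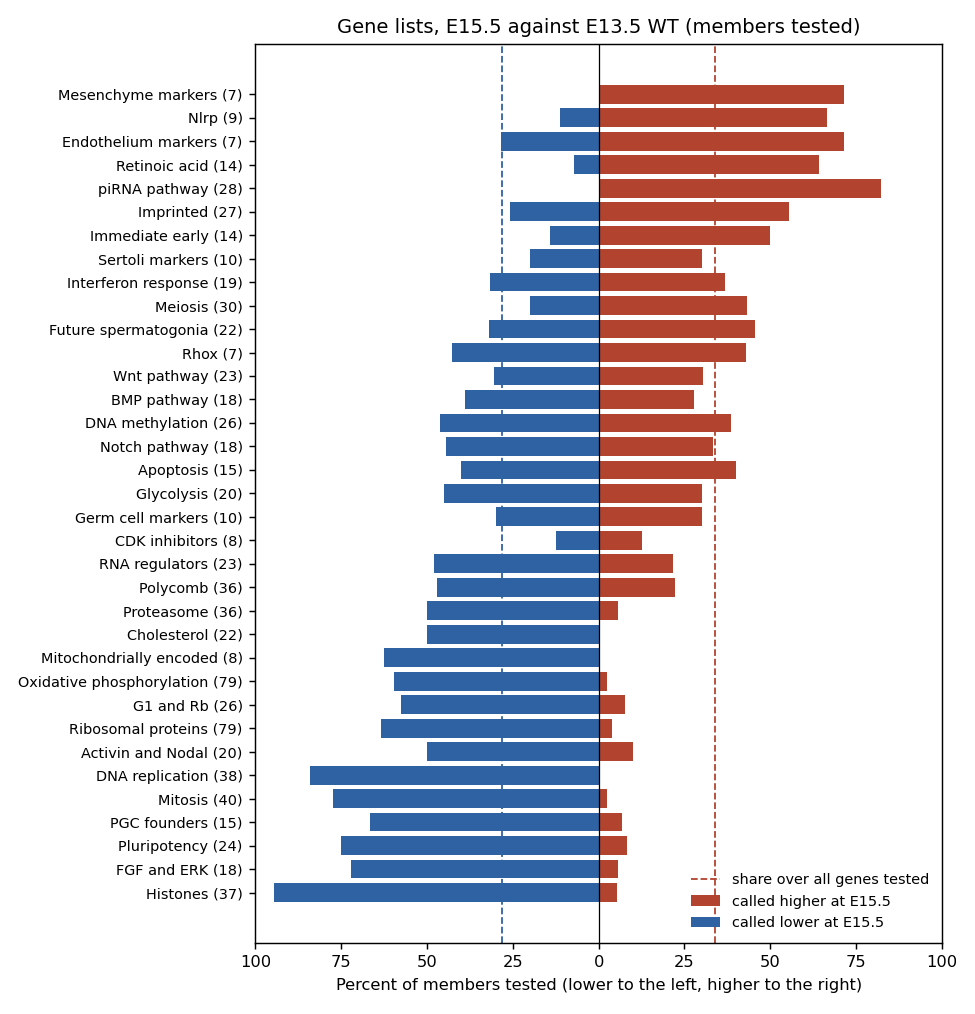
Percent of the members tested of each gene list (number tested in parentheses) that were called lower (bars to the left) or higher (bars to the right) at E15.5, for lists with at least 7 members tested, ordered by median log2 fold change. The dashed lines mark 28.1% and 34%, the shares over all genes. Lists past the left line include the histone, FGF and ERK, pluripotency, mitosis and replication lists. Those past the right line include the piRNA, retinoic acid, Nlrp and imprinted lists. Members low at E13.5 or at E15.5 could pass the filter through the other age alone. The dynein list is not shown.

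Transcription factors of later spermatogonia, the male germ cells that found spermatogenesis, included genes that rose and genes that fell. Of 22 tested, 10 were called higher and 7 lower, against 34% and 28.1% over all genes. Sohlh1 (ENSMUSG00000059625, chromosome 2, 25842995 to 25847248), a basic helix-loop-helix factor of spermatogonia, had the largest rise among genes over 50 cpm without overlap. It was at 0.0528, 0.404 and 0.158 cpm, or 12 counts in all, and then at 70.3, 57.2, 64.3 and 67.2 cpm (log2 fold change 8.03 ± 0.56, adjusted p = 3.6e-08). Its partner Sohlh2 fell from 165 to 216 cpm to 8.18, 12.3, 25.5 and 13.5 cpm (-3.84 ± 0.41). The transcriptional repressor Bcl6b rose from under 0.5 cpm to 10.5 to 35.7 cpm, and the homeobox factor Lhx1 went from 94.2 to 113 cpm to 2.85 to 5.21 cpm. Of 7 genes in the Rhox homeobox cluster of the X chromosome, 3 were higher and 3 lower. Rhox10 rose from 1.11 to 2.32 cpm to 37.6 to 63.4 cpm, and Rhox5 went from 97.3 to 115 cpm to 28.6 to 75.3 cpm. Among the RNA regulators, 5 were higher and 11 lower of 23. Dazl, which binds germ cell mRNAs, changed by -1.32 ± 0.20, and Dnd1, a partner of Nanos proteins, by 1.53 ± 0.25. Nanos2, an RNA-binding protein of male gonocytes, chosen after its values were seen, was at 4.86, 4.55 and 7.68 cpm and then at 9.87, 26.9, 42.9 and 25.3 cpm. Here 1064.2 was nearest to E13.5 and 941.3 farthest. Musashi protein Msi2 rose from 26.3 to 34.1 cpm to 131 to 159 cpm and Elavl2 changed by -1.84 ± 0.17. Among 30 meiosis genes 13 were higher and 6 lower, with Taf7l, a transcription factor subunit of germ cells, and the recombination gene Spata22 at 3.82 ± 0.46 and 4.77 ± 0.51, and the synaptonemal complex gene Syce2 at -2.26 ± 0.20. Of the 24 meiosis genes with a promoter, 29.2% held CACGTG and 41.7% TTCCCGC, against 10.4% and 8.68% of all promoters.

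Chromatin and imprinted genes showed members in each direction. Polycomb genes, whose products silence by histone modification, were lower in 17 and higher in 8 of 36 cases with TMM, in 12 and 11 with library totals and in 11 and 11 with the upper quartile. The PRC2 subunits Suz12 and Ezh2 changed by -2.02 ± 0.16 and -1.74 ± 0.14 and the PRC1 ligase Rnf2 by -1.49 ± 0.16. The histone methyltransferase Ehmt2 rose by 1.68 ± 0.18 on the log2 scale. Imprinted genes, expressed from the allele of a single parent, were higher in 15 and lower in 7 of 27 cases. Peg10, derived from a retrotransposon (ENSMUSG00000092035, chromosome 6, 4747306 to 4760517), went from 5.18, 4.55 and 4.26 cpm to 324, 277, 229 and 257 cpm, a log2 fold change of 5.64 ± 0.38 (adjusted p = 2.9e-08). The growth factor Igf2 rose from 3.53 to 5.76 cpm to 21.9 to 44.0 cpm, while Mest went from 144, 164 and 120 cpm to 30.0, 27.5, 33.1 and 27.0 cpm. Nuclear RNA export factor Nxf2, an X-linked gene, was at 7.29, 10.6 and 8.16 cpm and then at 1414, 1205, 1030 and 1306 cpm, among the 10 largest gains in mean cpm.

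Transcripts for oxidative phosphorylation and protein synthesis were more often called lower than higher at E15.5. Among 79 nuclear-encoded subunits of the respiratory chain and ATP synthase, 47 were called lower and 2 higher with TMM, with a median of -0.75. The counts were 35 and 3 with library totals and 34 and 4 with the upper quartile. Atp5f1, an ATP synthase subunit, went from 300, 283 and 257 cpm to 45.4, 38.7, 54.2 and 43.8 cpm (-2.84 ± 0.23). Of the 67 promoters found for this list, 44.8% held CCAAT, 10.4% CACGTG, 10.4% TTCCCGC, 8.96% TTTGAA and 7.46% TATAAA, against 39.6%, 10.4%, 8.68%, 12.4% and 7.23% of all promoters. Of 8 mitochondrially encoded protein genes, 5 were lower with TMM normalization, but 1 with library totals and 0 with the upper quartile, and 2 without 900.2 and 3 without 855.2. The share of counts in mitochondrially encoded genes was 10.6% to 11.2% at E13.5 and 7.96% to 10.3% at E15.5, without overlap (exact permutation test, two-sided p = 0.0571, the smallest 3 against 4 animals allow). Cytosolic ribosomal protein genes gave 50 lower and 3 higher calls among 79, with 39 lower under library totals and under the upper quartile. They have many processed pseudogenes, so counts of single members are uncertain, as are those of Gapdh and Npm1. Of 22 cholesterol synthesis genes 11 were lower and none higher. Sqle, an enzyme of the pathway, changed by -2.32 ± 0.17. Among glycolysis genes 6 were higher and 9 lower of 20, and the enzyme Aldoa went from 196 to 240 cpm to 70.2 to 109 cpm. Other large falls were those of the redox protein Txn1, from 134, 149 and 111 cpm to 5.05, 7.26, 8.14 and 6.50 cpm, of Ckb, a creatine kinase, from 115 to 173 cpm to 3.51 to 13.5 cpm, and of Tdh, threonine dehydrogenase, from 66.5 to 79.2 cpm to 3.18 to 7.74 cpm.

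Several genes best known from other tissues rose, some from levels near 0 at E13.5. All 15 members tested of a dynein list, chosen after values were seen, were called higher. The share was 34% over all genes and 47.7% in the longest of 5 classes by gene span. However, of the 3372 genes tested with an E13.5 mean under 2.4 cpm, 2900 were called higher, because such genes could pass the filter through E15.5 alone. Dnah5, Dnah9, Dnah10 and Dnah17 were among these genes, while Dnah7b and Dnah14 had higher E13.5 means. The count of dyneins called is therefore in part set by the filter. Dnah10, an axonemal dynein heavy chain, went from 0.581, 0.859 and 1.11 cpm to 117, 63.6, 22.7 and 64.2 cpm. The muscle protein gene Ttn went from 18.7 to 20.7 cpm to 1849, 985, 248 and 943 cpm, and the plasma proteins Vwf and Afp reached 184 to 259 cpm and 35.2 to 112 cpm from under 2 cpm. Malat1, a nuclear long noncoding RNA, rose less, from 850 to 992 cpm to 1596 to 2421 cpm (0.88 ± 0.19). For Dnah10 and Ttn the lowest E15.5 value was in 941.3 and the highest in 1064.2. The summed level of 96 olfactory receptor genes, also chosen after values were seen, was 5.70, 6.42 and 7.37 cpm, then 56.0, 44.7, 31.6 and 49.4 cpm. More genes were detected at E15.5, with 13537 to 15246 above 2.4 cpm against 11958 to 12038 at E13.5 (exact permutation test, two-sided p = 0.0571).

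**Figure D5:**
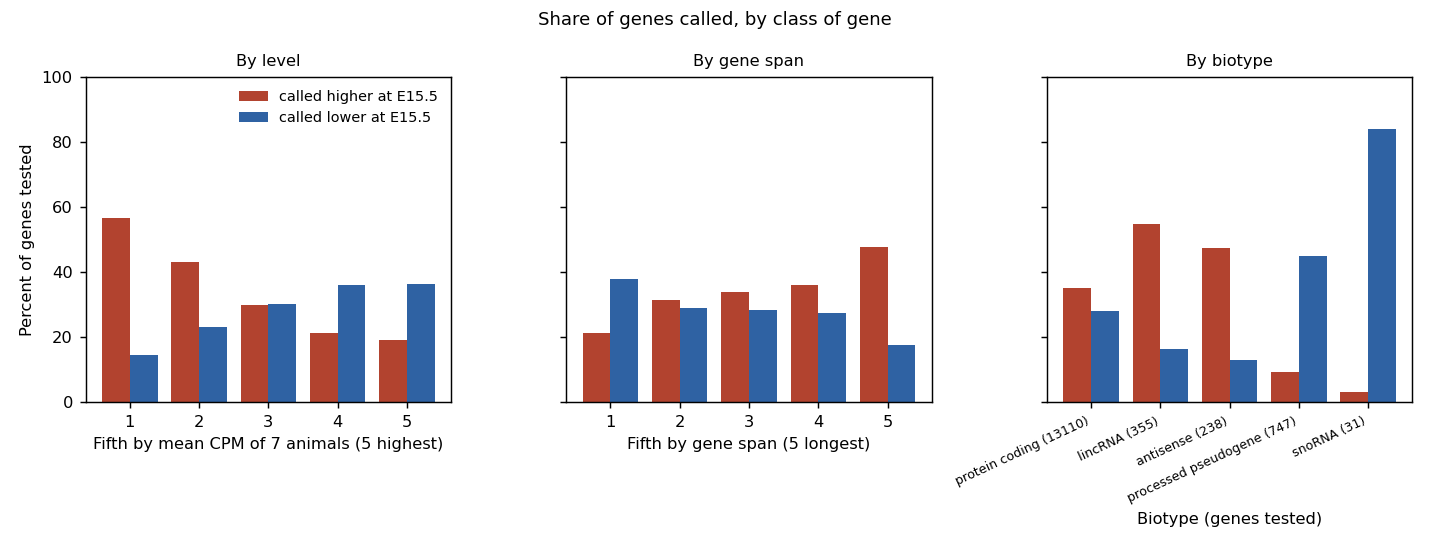
Percent of genes tested that were called higher or lower at E15.5, by mean level over the 7 animals in 5 classes of equal size (left), by gene span in 5 such classes (middle) and by biotype (right, number tested in parentheses). In the lowest class by level 56.6% were higher and 14.5% lower, and in the highest 36.5% were lower.

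The classes of gene differed in how often they were called. Genes were split into 5 classes of equal size by mean level. In the lowest 56.6% were higher and 14.5% lower, and in the highest 36.5% were lower. A gene with a low mean could pass the filter through the age at which it was high alone. Of the genes called higher, 2900 had an E13.5 mean under 2.4 cpm, and of those called lower 484 had such a mean at E15.5, so the shares by level are in part set by the filter. Of 5 such classes by gene span the longest was higher in 47.7% and lower in 17.6%, with a median log2 fold change of 0.58, and the shortest in 21.3% and 37.9% with a median of -0.36. Long intergenic RNA genes were higher in 54.9% of 355 and antisense genes in 47.5% of 238. Of 31 snoRNA genes, most of which lie in introns of other genes, 83.9% were lower, and of 747 processed pseudogenes 45% were. Reads of antisense and intronic genes may come from their partner or host genes. By chromosome the share of genes called higher lay between 30% and 38.1% on the autosomes and was 33.6% on the X.

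Markers of other testis cells moved in part with age, and their part in the results was not tested. Mesenchyme markers were called higher in 5 of 7 tested, and the 12 listed summed to 14.5 to 21.9 cpm and then to 80.0 to 141 cpm. The 5 called, Postn, Pdgfra, Col1a1, Col6a1 and Col3a1, were under 2.4 cpm in every E13.5 animal. They passed the filter through E15.5 alone, which favours such calls. Col1a1, a fibrillar collagen, went from 0.423, 1.87 and 0.316 cpm to 25.9, 20.2, 17.6 and 13.8 cpm, whereas Dcn stayed under 2.5 cpm in every animal. Sertoli cell markers were higher in 3 and lower in 2 of 10, and their sums overlapped at 68.8 to 97.5 cpm and 84.1 to 123 cpm. Most of the E13.5 sum was Dmrt1, which was called lower, from 53.7 to 63.6 cpm to 25.8 to 48.9 cpm. The Sertoli sum therefore hides the members called higher, Clu, Gstm6 and Gata4. Clu went from 1.62 to 6.66 cpm to 23.7 to 43.2 cpm. The other member called lower was Aard. The defining Sertoli genes Sox9 and Amh were at most 6.47 and 3.20 cpm in any animal. Leydig cell sums overlapped (67.4 to 73.6 cpm and 65.0 to 74.2 cpm) and Insl3 was at 0 in all animals but 941.3, where it was at 0.0537 cpm. Most of the Leydig sum at each age was Fdx1 and Scarb1, which were not called. Of 4 members tested only Cyp17a1 was called, higher, from at most 0.303 cpm to 0.264 to 2.65 cpm, with overlap. Star, which was not called, went from 2.11 to 4.89 cpm to 4.92 to 6.82 cpm. Endothelial markers were higher in 5 and lower in 2 of 7 and summed to 109 to 158 cpm and later to 62.8 to 132 cpm. Most of the E13.5 sum was Pecam1, an adhesion molecule that fetal germ cells also express, which went from 132, 144 and 97.9 cpm to 16.2 to 23.4 cpm. The sum therefore hides the members that rose. Flt1 went from 0.789 to 1.64 cpm to 13.1 to 33.4 cpm, and Cdh5 from 2.58 to 5.97 cpm to 13.4 to 31.1 cpm. The other member called lower was Cldn5, from 3.42 to 4.09 cpm to 0.0468 to 0.215 cpm. Macrophage sums rose from 2.83 to 3.89 cpm to 12.6 to 28.1 cpm. Of the 10 macrophage genes listed, 2 were tested, Cd68 and Mrc1, and these were called higher. They were at most 2.00 cpm in any E13.5 animal and passed the filter through E15.5 alone, which favours such calls. C1qa was at 0 in 6 of 7 animals. Erythroid sums rose from 3.99 to 4.37 cpm to 8.25 to 9.96 cpm, with Hba-a2 at 0 in 6 of 7 animals.

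The change with age was set beside that of gonocytes lacking Inhba, from 4 KO animals at each age. The genotype field of the records differs from the title for a KO animal too, 928.1 at E13.5. None of 15830 genes passed for a difference between the genotypes in the age change (edgeR interaction term, 966 at an unadjusted p under 0.05), while DESeq2 called 11 and limma-voom none. For Tdrd9 the log2 fold change was 6.31 in WT and 6.09 in KO, and for Mki67 it was -4.50 and -4.02. For Tet1 it was -3.32 in WT and -2.42 in KO, a difference of 0.90 with an adjusted p of 0.772.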

How the data were processed

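RNA-seq of sorted gonocytes was analysed from raw counts per gene that the authors deposited. Per the paper's methods the authors amplified 2 to 20 ng of RNA, sequenced single-end reads and ran RNAsik with STAR on GRCm38 (Ensembl release 84). The submitters' processing notes name STAR 2.5.2b, featureCounts, Subread 1.5.2, FastQC 0.11.5, Picard 2.26.3 and MultiQC 1.0, with no role given. Each animal has 2 records and a single count column, and how these were combined is not stated. The tables held 27633 genes, joined by identifier, and gave their biotypes. Of these genes 27494 were found in GENCODE M21 (GRCm38), the source of coordinates.

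Levels (cpm) are counts scaled to a library total of 1e+06. Genes above 2.4 cpm in at least 2 of the 7 WT animals were tested with edgeR 4.0.16 (R 4.3.3, limma 3.58.1), by robust quasi-likelihood with TMM normalization. All 15 Inhba animals entered the fit with a mean per group. Calls needed a Benjamini-Hochberg adjusted p under 0.05 and over 1.5-fold change. Standard errors are the log2 fold change divided by the square root of F. Principal components and correlations used log2 CPM with a prior count of 2. The test was tested on simulated data with 200 of 15376 genes changed. There it called 10.4% of 1.5-fold, 50.7% of 2-fold and 84.8% of 4-fold changes in this comparison, with 4 false calls. In the data 62.1% of genes were called, and the adjusted p and TMM depend on that share. The simulated rates therefore do not carry over to the data. DESeq2 1.42.0 and limma-voom were alternatives. Python 3.11 with scipy 1.17.1 served for exact permutation tests. An animal is the replicate. The edgeR p-values set the age difference against the spread between animals, estimated over all 15 Inhba animals with information shared across genes.

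Members and gene lists were chosen with earlier results of these data known, and lists are described without a test. Named genes are the 15 largest rises and falls called without overlap and over 50 cpm, the 10 largest gains and losses in mean cpm, and up to 6 members of each list with the smallest p and their paralogues. Predicted genes and pseudogenes are counted, not named, and a few genes that the rule names are not reported here. Inha animals were not used here.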

Additional observations from a re-analysis of the deposited data

Results flagged for a closer look

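Of 314 values examined in the 4 E15.5 animals (named genes, library measures and summed gene lists), 5 had an animal set far apart by Dixon's criterion at the 95% level, which chance alone would pass in about 1 in 20 groups. Animal 855.2 was high for Sptan1, a spectrin, at 3240 cpm against 2560 to 2640 cpm in the others. Animal 1064.2 was high for Crabp1, a retinoic acid binding protein, at 18.8 cpm against 12.6 to 13.5 cpm, and for Clu, a Sertoli cell marker, at 43.2 cpm against 23.7 to 23.8 cpm. It was low for Fzd10, a Wnt receptor, at 0.514 cpm against 1.90 to 2.00 cpm, and high in the summed beta-defensin genes, at 27.2 cpm, above the others.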

How the results depend on the processing

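Without a filter on low counts 9401 genes were called higher among 27587, against 5234 among 15376, and with a 2-fold threshold 2721 were called lower, against 4319. All other alternatives kept the counts of higher and lower calls within 1.5 times. DESeq2 called 11 genes for the interaction of age and genotype, against 0. Leaving out each WT animal gave 4792 to 5273 higher and 3999 to 4504 lower calls. Of the named genes, 1 reversed: Defb19, a beta-defensin that was not called, had a log2 fold change of 0.70, and of -0.21 to 1.01 when each WT animal was left out, with the lowest value without animal 941.3. The cause was not tested. No paired analysis was possible because the labels give the WT animals of the ages compared no shared replicate or litter number. With 3 and 4 animals the exact permutation test of a single value cannot go below 0.0571.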

Other observations

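The following gene groups are not described above. Of 19 interferon response genes tested, 7 were called higher and 6 lower, or 10 and 4 with library totals, which is near the 34% and 28.1% over all genes with TMM. B2m, the light chain of MHC class I, went from 2.91, 3.54 and 3.16 cpm at E13.5 to 42.6, 27.1, 33.1 and 32.0 cpm at E15.5, a log2 fold change of 3.17 ± 0.26 (edgeR adjusted p = 1.1e-07). Ifitm3, a membrane protein that marks early germ cells, went from 73.2 to 85.0 cpm to 6.97 to 26.3 cpm. Of 16 Nlrp genes, a family known for roles in innate immunity and in oocytes, 9 passed the filter, with 6 called higher and 1 lower. Nlrp2, Nlrp4a, Nlrp4e and Nlrp4f were under 0.5 cpm in every E13.5 animal and passed the filter through E15.5 alone. The counts of calls are therefore in part set by the filter. The 16 genes summed to 59.4 to 84.5 cpm at E13.5 and to 179 to 276 cpm at E15.5. Nlrp4f went from under 0.5 cpm to 68.2, 54.5, 18.3 and 43.9 cpm, with the lowest value in animal 941.3. Proteasome subunit genes were lower in 18 and higher in 2 of 36 cases, and lower in 12 with library totals. Psmd7 and Psma7, subunits of its cap and core, changed by -1.69 ± 0.14 and -1.60 ± 0.13.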
